A study of Homo sapiens with 4 samples.

Results

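The genes described here are the factors and markers of the epithelial-mesenchymal transition (EMT): the marker genes VIM, CDH1 and CDH2, the transcription factors SNAI1, SNAI2, TWIST1, ZEB1 and ZEB2, and the receptor genes TGFBR1 and TGFBR2. They were taken as all transcripts of these 10 genes in the raw count table, with identifiers matched to gene symbols, which gave 119 of the 227368 listed transcripts. RNA of H1299 cells, an established line of human non-small-cell lung carcinoma, was sequenced after 48 h with 5 μM HgCl2 (mercury chloride) or with the solvent of HgCl2, 0.6% EtOH, as the control. Replicates 1 and 2 of each group are given as 2 columns of the table, and both groups are the same line with no genetic change between them. The treatment text of the labels gives 5 μM HgCl2 for all 4 samples, whereas the study's methods give the control cells the solvent alone, and the group names of the labels were used.

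EMT is the process in which epithelial cells loosen their junctions and take on the shape and motility of mesenchymal cells. It is known for the exchange of E-cadherin (CDH1) for N-cadherin (CDH2) and for a gain of the intermediate filament vimentin (VIM), and it is driven by the zinc finger factors of the SNAI and ZEB families and the helix-loop-helix factor TWIST1, which repress CDH1. Transforming growth factor beta (TGF-beta), acting through the receptor kinases TGFBR1 and TGFBR2 and the SMAD proteins, is a classic inducer of these factors, and carcinoma lines such as H1299 are often used to study it.

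The counts of VIM lay on 5 transcripts that differ from the full-length spliced form by bases of its introns, and a stretch of each is printed to show where the counts can have come from. The bases in capitals belong to no other listed transcript on either strand (GENCODE 44, GRCh38), and those in lower case lie beside them, in exons or introns as stated. The sequences were read 5′ to 3′ on the plus strand of chromosome 10 as chr10:17230691-17230770 for VIM-205, chr10:17233912-17233991 for VIM-210, chr10:17235370-17235449 for VIM-203, chr10:17235015-17235105 for VIM-202 and chr10:17233225-17233344 for VIM-207. In VIM-205, VIM-210 and VIM-203 the lower-case bases are the end of an exon and the capitals are the first bases of the intron behind it, which open with the GT of a splice donor. In VIM-202 the transcript ends with the last capital, and in VIM-207 it begins with the first, both within introns of the full-length form.
VIM-205: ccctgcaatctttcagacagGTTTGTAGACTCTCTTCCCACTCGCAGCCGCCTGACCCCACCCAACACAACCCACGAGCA
VIM-210: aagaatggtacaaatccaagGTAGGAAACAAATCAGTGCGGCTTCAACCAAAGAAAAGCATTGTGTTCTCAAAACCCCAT
VIM-203: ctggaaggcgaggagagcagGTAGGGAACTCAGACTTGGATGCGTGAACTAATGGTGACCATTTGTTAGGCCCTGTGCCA
VIM-202: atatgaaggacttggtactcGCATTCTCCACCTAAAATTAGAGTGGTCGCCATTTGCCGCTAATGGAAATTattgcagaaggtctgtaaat
VIM-207: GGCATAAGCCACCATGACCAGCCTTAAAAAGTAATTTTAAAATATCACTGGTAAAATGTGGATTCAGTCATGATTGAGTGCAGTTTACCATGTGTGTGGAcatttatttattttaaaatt

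TWIST1 is the one of the 5 EMT factor genes whose coding transcript held more than a few counts, and the start of its coding sequence, all of it covered by TWIST1-201 alone, is printed for that reason. It was read on the minus strand at chr7:19117202-19117321 (GRCh38).
TWIST1-201: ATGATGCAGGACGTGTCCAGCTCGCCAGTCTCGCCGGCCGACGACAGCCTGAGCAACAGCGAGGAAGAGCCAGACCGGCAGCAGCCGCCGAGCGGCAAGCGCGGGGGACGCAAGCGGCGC

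Counts per column added up to 5051958 and 5053120 in EtOH and to 4722772 and 4720978 in HgCl2, and 33148 and 33106 transcripts had a count in EtOH against 25432 and 25531 in HgCl2. The 2 columns of a group lay closer together than sampling noise alone would place them: the variance of their difference was 0.505 times that of independent counts in EtOH and 0.516 times in HgCl2, over transcripts whose columns add up to 20 counts or more, against 31.9 between EtOH replicate 1 and HgCl2 replicate 1. Each group was therefore counted as 1 sample, with the mean of its columns as its value. No difference between HgCl2 and EtOH has a replicate check, no p-value is given, and all intervals are exact 95% Clopper-Pearson intervals that cover counting error only. A count of 0 is not read as absence, since GAPDH and ACTB, which every cell uses, have 1 and 3 counts over all 4 columns and 41.8% of 19926 protein-coding genes are listed at 0 in all of them. Of the 6 carcinoma markers checked, KRT8, KRT18, KRT7 and NKX2-1 had counts, with a sum of 93 and 96 in EtOH and of 25 and 37 in HgCl2, while EPCAM and KRT19 were listed at 0. No count fell on the 4 blood markers, 4 to 5 EtOH and 1 to 2 HgCl2 counts fell on PECAM1 alone of the 3 endothelial markers, and 16 and 20 EtOH and 3 and 4 HgCl2 counts fell on 3 of the 4 fibroblast markers, mostly COL1A1.

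Of the 119 transcripts of the EMT genes, 21 had a count in any column, and together they held 661 to 777 counts per column. CDH1, SNAI1 and SNAI2 had none. The other 98 transcripts were listed at 0 in all 4 columns, and 49 of these have no base of their own. Counts followed such bases: of the 51 transcripts without one, TGFBR1-202 and TWIST1-202 alone had a count, at most 4 in a column. The counts are thus values of single transcripts and not the level of a gene. In a bulk sample, fewer cells with a transcript and less of it per cell cannot be told apart either.

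VIM encodes vimentin, the intermediate filament protein of mesenchymal cells and of many carcinoma lines, on the plus strand of chromosome 10 (chr10:17228241-17237593). Its counts added up to 620 and 628 in EtOH and to 501 and 511 in HgCl2, the most of the 10 genes. The log2 fold change of this sum, HgCl2 over EtOH on the TMM scale (TMM is the library scaling of edgeR), was -0.16 with an interval of -0.33 to 0.01, so the sum was not told apart from no difference. Its sign depended on the scaling, with -0.33 when TMM was computed on transcripts that had 10 or more counts in each column and 0.02 on the deposited FPKM scale.

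None of these counts lay on VIM-201 (ENST00000224237), the full-length coding transcript of 1868 bases, which has 0 bases of its own and 0 counts in every column. The coding transcript VIM-209 (ENST00000544301) has 274 bases of its own and was listed at 0 as well. All bases by which the 5 counted transcripts differ from the others lie in introns of VIM-201, and 0 of them in its exons. VIM-203 has 590 such bases in intron 1 and the whole of intron 6, 456 bases, while VIM-205 has 383 at the start of intron 2, VIM-207 has 100 further along intron 2, VIM-210 has 193 at the start of intron 4, and VIM-202 has 51 in intron 5. The map of the VIM transcripts shows these stretches beneath the exons of VIM-201.

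**Figure D1:**
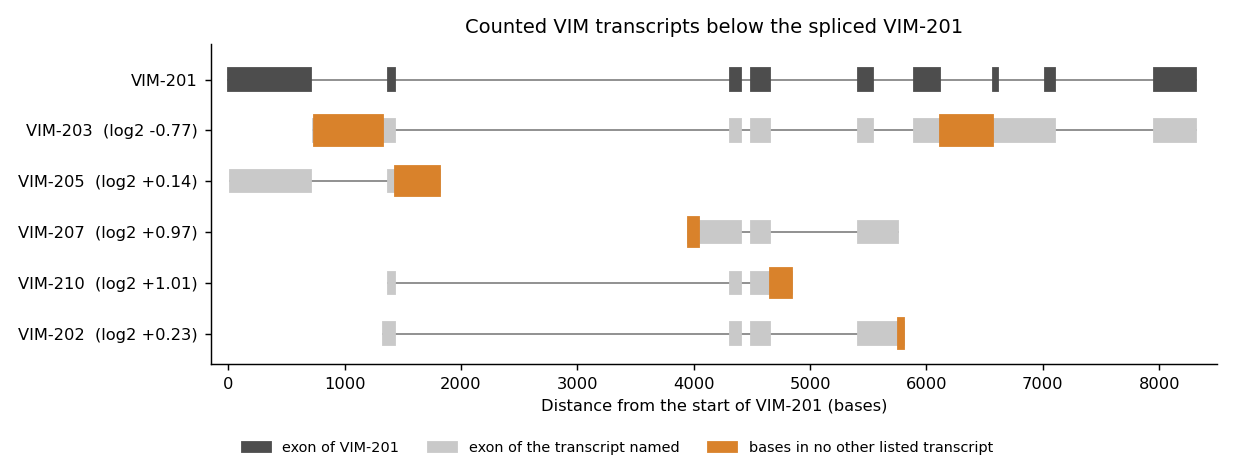
Exons of VIM-201 (dark) and of the 5 counted VIM transcripts (light), by distance in bases from the start of VIM-201, with the bases that belong to no other listed transcript in orange. The orange stretches, 51 to 590 bases long, all lie between the exons of VIM-201, and the log2 fold changes beside the names run from -0.77 for VIM-203 to 1.01 for VIM-210.

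VIM-203 (ENST00000469543), which the annotation places among targets of nonsense-mediated decay (the pathway that removes messages with an early stop codon), held the most counts of all EMT transcripts. It had 376 and 390 counts in EtOH and 200 and 208 in HgCl2. The fold was 1.70 lower in HgCl2, a log2 fold change of -0.77 with an interval of -1.02 to -0.52. Among all 1878 transcripts with a mean count within a factor of 2 of its own, 6.18% had a lower log2 fold change and the median was 0.17.

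VIM-207 (ENST00000495528), annotated as a retained intron, went the other way. It had 67 and 62 counts in EtOH and 119 and 110 in HgCl2. It was 1.96-fold higher in HgCl2, a log2 fold change of 0.97 with an interval of 0.52 to 1.43, and 79.6% of 2976 transcripts of similar count had a lower value. An antisense gene, ENSG00000234961, covers the bases of VIM-207 that follow its 100 own bases. That gene held 0, 1, 0 and 0 counts in EtOH replicates 1 and 2 and HgCl2 replicates 1 and 2, and whether the counting used strand is not given in the sources used here.

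The other 3 VIM transcripts were close to the rest of the table or rested on few counts. VIM-202 (ENST00000421459), also a retained intron, had 104 and 103 counts in EtOH and 108 and 112 in HgCl2, a log2 fold change of 0.23 with an interval of -0.17 to 0.63. VIM-205 (ENST00000485947), a transcript without a defined coding sequence, had 68 and 67 counts in EtOH and 63 and 72 in HgCl2, so the groups overlapped. Its log2 fold change was 0.14 with an interval of -0.36 to 0.65, and -0.03 when TMM was computed on transcripts that had 10 or more counts in each column. VIM-210 (ENST00000637053) had 5 and 6 counts in EtOH and 11 and 9 in HgCl2, a 2.01-fold higher mean whose log2 interval ran from -0.63 to 2.82. Its difference was not detectable at this depth.

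**Figure D2:**
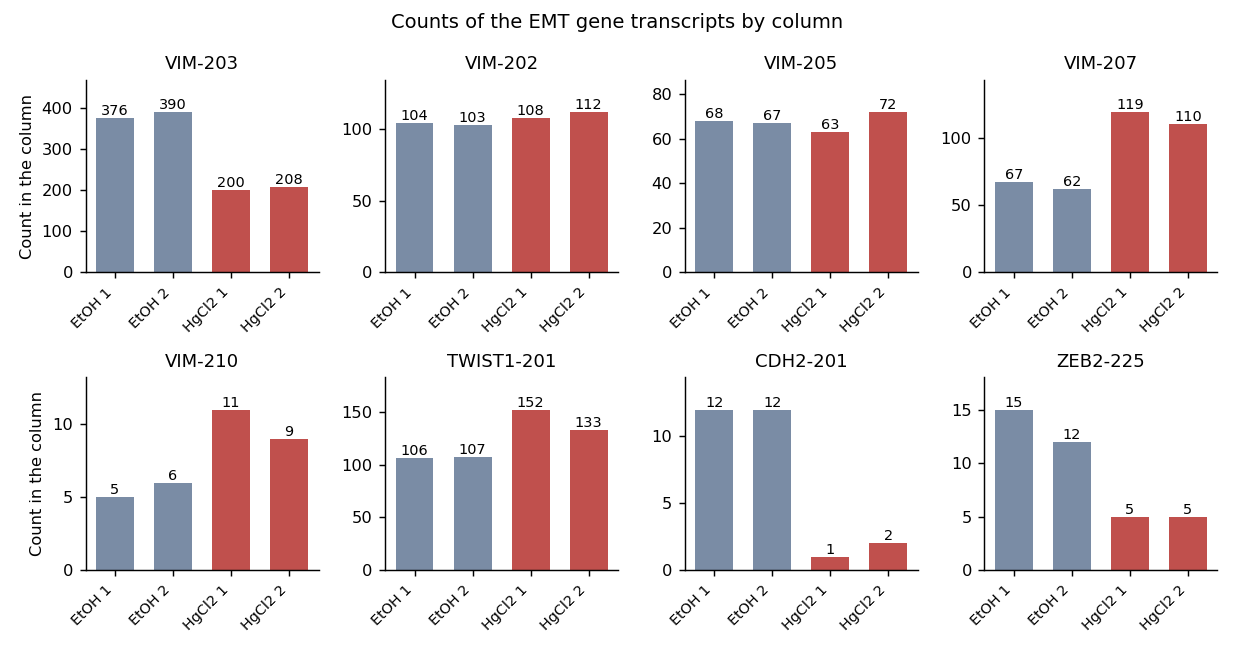
Counts per column of the 8 EMT transcripts whose mean reached 10 counts in either group, EtOH in blue and HgCl2 in red, with the count above each bar and a separate axis from 0 in each panel. VIM-203, CDH2-201 and ZEB2-225 are lower in both HgCl2 columns, VIM-207, VIM-210 and TWIST1-201 are higher in both, and VIM-202 and VIM-205 are near level.

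The make-up of the VIM count therefore differed more than its sum. VIM-203 held 61.4% of the VIM count in EtOH (57.4 to 65.2) and 40.3% in HgCl2 (36.0 to 44.7), a difference of -21.1 percentage points. VIM-207 held 10.3% (8.06 to 13.0) and 22.6% (19.1 to 26.5), a difference of 12.3 points. VIM-202 went from 16.6% (13.8 to 19.7) to 21.7% (18.2 to 25.6), and VIM-205 from 10.8% (8.49 to 13.5) to 13.3% (10.5 to 16.6), with intervals that overlap. The bars of VIM shares show VIM-203 at 60.6% and 62.1% in the EtOH columns and at 39.9% and 40.7% in the HgCl2 columns. These shares do not depend on the scaling between libraries, and they are shares of counts, not of molecules, since the full-length VIM-201 has no base by which it could be told apart.

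**Figure D3:**
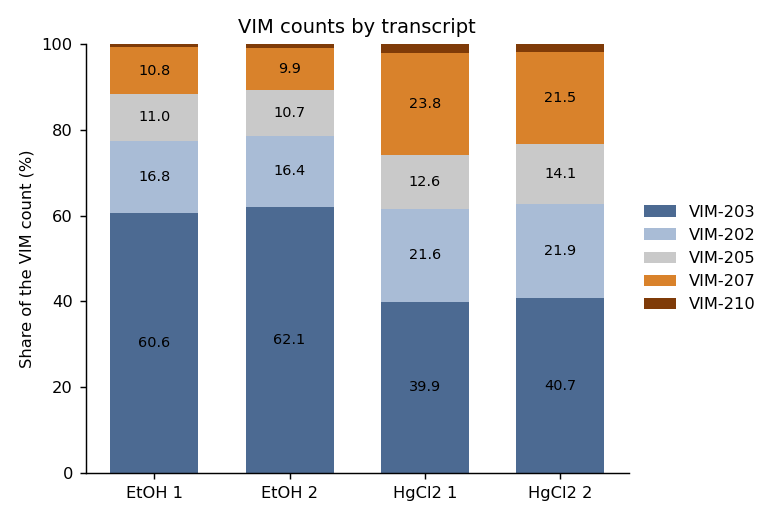
Share of the VIM count, in percent, on each of its 5 counted transcripts, 1 bar per column. The share of VIM-203 is near 61.4% in EtOH and near 40.3% in HgCl2, and that of VIM-207 is 10.3% and 22.6%, each the share of the group's mean counts.

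At mean counts from 50 to under 500, transcripts of the annotated classes of VIM-203 and VIM-207 were for the most part higher in HgCl2. The 628 retained introns of this range had a median log2 fold change of 0.55, with 31.1% past 2-fold in either direction. The 74 targets of nonsense-mediated decay had a median of 0.40, and 10% of them lay under -0.60, so VIM-203 at -0.77 was in the lower tail of its own class. VIM-207 at 0.97 lay within the middle of its class, whose 10th and 90th percentiles were -0.46 and 1.60. The 2285 protein-coding transcripts of this count range had a median of 0.07, and all 4016 transcripts of the range had a median of 0.18.

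TWIST1 encodes the helix-loop-helix factor that turns on mesenchymal genes and represses CDH1 (chr7:19020991-19117636, minus strand). Nearly all of its counts lay on the coding transcript TWIST1-201 (ENST00000242261), which has 1630 bases, 1182 of them its own: 664 in the second exon, all untranslated, and 518 in the first, 203 of them coding. TWIST1-201 had 106 and 107 counts in EtOH and 152 and 133 in HgCl2. It was 1.48-fold higher in HgCl2, a log2 fold change of 0.56 with an interval of 0.19 to 0.94. Among 2564 transcripts of similar count, 69.0% had a lower log2 fold change and the median was 0.16, so TWIST1-201 lay in the upper part of the usual range and not beyond it.

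CDH2 encodes N-cadherin, the adhesion protein of neural and mesenchymal cells (chr18:27950966-28177130, minus strand). CDH2-201 (ENST00000269141), its full-length coding transcript of 4016 bases with 126 of its own, had 12 and 12 counts in EtOH and 1 and 2 in HgCl2. The ratio of the group means was 7.24-fold lower in HgCl2, with a wide interval of 1.38-fold to 111-fold lower (log2 -6.79 to -0.46). CDH2-205 had 1 and 1 counts in EtOH and 0 in both HgCl2 columns. Such a drop was common at this depth: of the 2214 transcripts whose EtOH mean was 10 to under 15 counts, 20.7% had an HgCl2 mean of at most 1.5 counts and 75.6% a lower mean in HgCl2 than in EtOH. Fewer transcripts had a count in the HgCl2 columns, as given above, and the part of this in the low counts of CDH2 and ZEB2 was not tested.

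ZEB2 encodes one of the zinc finger homeobox repressors of CDH1 (chr2:144364364-144521057, minus strand) and has 47 of the 119 listed transcripts. ZEB2-225 (ENST00000625161), a retained intron with 654 bases of its own, had 15 and 12 counts in EtOH and 5 and 5 in HgCl2. The interval of the log2 fold change of -1.29 ran from -3.12 to 0.28. Summed over 7 counted transcripts, ZEB2 had 24 and 21 counts in EtOH and 8 and 8 in HgCl2, a log2 fold change of -1.35 with an interval of -2.72 to -0.13. Of the transcripts that began from the same 10 to under 15 counts in EtOH, 54.2% had at most 5 in HgCl2, the level of ZEB2-225. The antisense gene ZEB2-AS1 had 8 and 9 counts in EtOH and 2 and 0 in HgCl2, and reads of the 2 genes could be told apart by strand alone where they overlap.

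The related repressor gene ZEB1 had 2 and 3 counts in EtOH and 3 and 2 in HgCl2 over its 23 listed transcripts, all on ZEB1-205 and ZEB1-212. These counts are at or under 3, and no fold is given. ZEB1-AS1, on the other strand, had 3, 6, 2 and 1 counts in EtOH replicates 1 and 2 and HgCl2 replicates 1 and 2.

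The receptor genes were near the limit of the counts. TGFBR1, the type I receptor kinase that phosphorylates SMAD proteins, had 3 and 4 counts in EtOH and 2 and 2 in HgCl2. TGFBR2, the type II receptor that binds the ligand and activates TGFBR1, had 0 counts in both EtOH columns and 3 in each HgCl2 column, all on TGFBR2-203. Both groups of TGFBR2 are at or under 3 counts, and 420 transcripts of the whole table had 0 counts in EtOH and a mean of at least 3 in HgCl2. TGFBR2-204, a transcript without a defined coding sequence and with 1690 bases of its own, was listed at 0. The coding transcripts TGFBR2-201, TGFBR2-202 and TGFBR1-202 have 0 bases of their own. The few counts of the receptor genes are thus no measure of their coding RNA.

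CDH1 encodes E-cadherin, the cadherin of epithelial junctions, and its 11 listed transcripts had 0 counts in all 4 columns, 5 of them with a run of at least 150 bases of their own and 1519 such bases together. SNAI1, a repressor of CDH1 with 1 listed transcript whose 1705 bases are all its own, was listed at 0, and so were the 3 transcripts of its relative SNAI2, with 1360 bases of their own. Of 2654 protein-coding genes with 1 listed transcript and such a run, as SNAI1 has, 1705, or 64.2%, were at 0 in all columns. This share does not tell genes that are silent in these cells from genes whose reads were not counted. A change in CDH1, SNAI1 or SNAI2 could not be assessed.

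Levels of different genes were set side by side as FPKM, counts per length and depth. The length is that of the whole transcript and not of the bases that can be counted. The mean FPKM in EtOH was 26.2 for VIM-203, 25.0 for VIM-202, 12.2 for VIM-207, 11.9 for TWIST1-201, 10.8 for VIM-205, 1.97 for VIM-210, 0.803 for ZEB2-225 and 0.544 for CDH2-201. In HgCl2 the order of FPKM was VIM-202 at 33.2, VIM-207 at 27.1, TWIST1-201 at 19.9, VIM-203 at 17.4, VIM-205 at 13.5, VIM-210 at 4.48, ZEB2-225 at 0.372 and CDH2-201 at 0.085. VIM-203, first in EtOH, thus stood behind VIM-202, VIM-207 and TWIST1-201 in HgCl2, and the order of the named transcripts from VIM-205 down was the same in both groups. ZEB2-242, on at most 4 counts in a column, had a mean FPKM of 6.37 in EtOH, above VIM-210, and of 1.14 in HgCl2, below it. With 1 sample a group there is no replicate spread by which neighbours in these orders could be told apart.

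Of the 119 EMT transcripts, 7 had a mean FPKM above 1 in either group and more than 3 counts in either group mean, the filter for a comparison: the 5 VIM transcripts, TWIST1-201 and ZEB2-242. ZEB2-242 passed with 4 and 3 counts in EtOH and 1 and 0 in HgCl2. One of the 7, VIM-210, was past 2-fold higher in HgCl2 and 0 were past 2-fold lower. Over all 16462 transcripts above the filter, 41.6% were past 2-fold, 18.0% higher and 23.5% lower, with a median log2 fold change of -0.11. Among the 5 EMT transcripts that had 10 or more counts in each column, 0 were past 2-fold, beside 24.9% of 8502 transcripts. At mean counts from 50 to under 500, where VIM-203, VIM-202, VIM-205, VIM-207 and TWIST1-201 lie, 23.3% of 4016 transcripts were past 2-fold. The count of EMT transcripts past 2-fold was thus no higher than the share of the whole table.

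**Figure D4:**
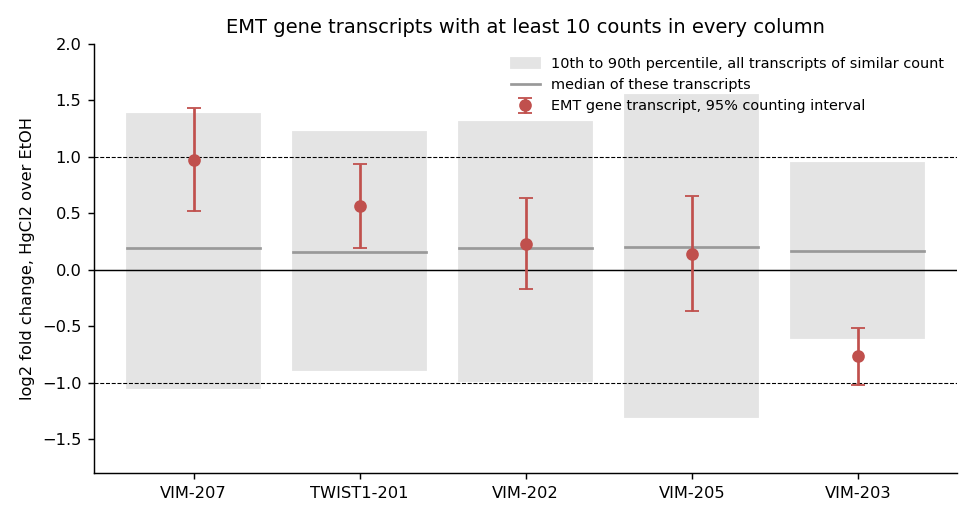
Log2 fold change, HgCl2 over EtOH on the TMM scale, of the 5 EMT transcripts that had 10 or more counts in each column (red, with 95% counting intervals) over the 10th to 90th percentile of all transcripts within a factor of 2 of the same mean count (grey). VIM-203 at -0.77 lies under its grey range, which ends at -0.61, and the other 4 lie within theirs.

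Other genes of EMT were grouped in 5 lists, and transcripts above the filter were counted in each. The epithelial list, of junction proteins, keratins and regulators of epithelial identity, had counts in 12 of its 34 genes, and 3 of 11 compared transcripts were past 2-fold higher in HgCl2 and 4 lower, with a median log2 fold change of 0.34. CLDN1-201, of the tight junction protein claudin 1, had 2395 and 2320 counts in EtOH and 2892 and 2899 in HgCl2, 1.36-fold higher. DSG2-201, of a desmosomal cadherin, had 2157 and 2099 counts in EtOH and 2853 and 2880 in HgCl2, 1.49-fold higher. The epithelial transcripts of lower count went both ways. TJP1-201, of the tight junction scaffold ZO-1, had 9 and 7 counts in EtOH and 57 and 60 in HgCl2, 8.08-fold higher, while KRT8-217, of a keratin of simple epithelia, had 44 and 47 in EtOH and 2 and 2 in HgCl2, 20.6-fold lower with an interval of 5.38-fold to 175-fold. KRT8 is also one of the carcinoma markers given above.

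The mesenchymal list, of matrix, cytoskeletal and surface proteins, had counts in 25 of 33 genes, and 5 of 33 compared transcripts were past 2-fold higher and 9 lower, with a median of -0.22. Its transcripts of highest count differed little between the groups. AXL-201, of a receptor tyrosine kinase of mesenchymal carcinoma cells, had 7875 and 7925 counts in EtOH and 6958 and 6880 in HgCl2, a log2 fold change of -0.05. MSN-201, of the membrane-actin linker moesin, had 4780 and 4828 in EtOH and 5063 and 5165 in HgCl2, a log2 fold change of 0.23, and the values of FBN1-201 (fibrillin 1) and LOXL2-201 (a collagen cross-linking enzyme) were 0.10 and -0.18. Larger differences lay on THBS1-201, of the matrix protein thrombospondin 1, with 265 and 261 counts in EtOH and 43 and 60 in HgCl2, 4.62-fold lower, and on WIPF1-204, of a regulator of actin assembly, with 175 and 176 in EtOH and 66 and 74 in HgCl2, 2.27-fold lower. NT5E-202, of the surface enzyme CD73, had 38 and 28 in EtOH and 97 and 104 in HgCl2, 3.36-fold higher. The rule for naming transcripts of large fold, in this list as in the others, asks for 30 counts in both groups. It so passes over strong drops and strong rises. The following were chosen after their values were seen. SPARC-201, of a matrix glycoprotein, had 212 and 203 counts in EtOH and 26 and 25 in HgCl2, a log2 fold change of -2.88. TPM1-232, of tropomyosin 1, had 114 and 115 in EtOH and 32 and 24 in HgCl2, a log2 fold change of -1.89. Other transcripts of TPM1 and WIPF1 went the other way. TPM1-235 had 2 and 2 counts in EtOH and 25 and 26 in HgCl2, and WIPF1-210 had 2 and 1 in EtOH and 36 and 33 in HgCl2. Summed over its transcripts, TPM1 had 350 and 349 counts in EtOH and 337 and 309 in HgCl2. WIPF1 summed to 183 and 187 in EtOH and to 107 and 114 in HgCl2.

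The TGF-beta list, of ligands, SMAD proteins, regulators and target genes, had counts in 25 of 30 genes, and 5 of 30 compared transcripts were past 2-fold higher and 10 lower, with a median of -0.16. Among the targets, CCN2-201, of connective tissue growth factor, had 6999 and 7154 counts in EtOH and 13030 and 13160 in HgCl2, 2.04-fold higher. SMAD3-201, of the signal transducer itself, went the other way, with 1326 and 1390 counts in EtOH and 619 and 579 in HgCl2, 2.05-fold lower. LTBP2-201, of a latent TGF-beta binding protein family member, had 468 and 469 in EtOH and 754 and 752 in HgCl2, 1.78-fold higher. The log2 fold changes of 3 transcripts of TGIF1, a corepressor of SMAD proteins, were 0.92, 0.77 and 0.43. Larger folds lay on transcripts that the rule for naming passes over, and 2 were chosen after their values were seen. TGFB1-201, of a ligand, had 61 and 60 counts in EtOH and 22 and 21 in HgCl2. BAMBI-201 had 1 and 1 in EtOH and 35 and 25 in HgCl2. By GENCODE 44 SMAD3-201 has 1 base of its own and WIPF1-204 has 10, and which bases their counts rest on was not tested.

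The list of other EMT factors and their partners had counts in 24 of 29 genes, with 5 of 31 compared transcripts past 2-fold higher and 5 lower and a median of 0.23. BMI1-201 (a Polycomb protein), SOX9-201 (a transcription factor of progenitor cells), RCOR1-201 (the corepressor CoREST) and GSK3B-201 (a kinase that marks SNAI1 for degradation) were 1.41-fold, 1.36-fold, 1.34-fold and 1.27-fold higher in HgCl2, from 891 to 1621 counts per EtOH column. Differences went both ways at lower counts, at TCF4-216, a retained intron of a helix-loop-helix partner of TWIST1, with 36 and 33 counts in EtOH and 72 and 60 in HgCl2, and at EZH2-209, a decay target of a histone methyltransferase gene, with 71 and 81 in EtOH and 33 and 38 in HgCl2. FBXW7-205, a retained intron of a ubiquitin ligase subunit gene, had 62 and 63 counts in EtOH and 109 and 115 in HgCl2, 1.98-fold higher.

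In the list of the cadherin-catenin complex and its nectin partners, 11 of 15 genes had counts, with 5 of 17 compared transcripts past 2-fold higher and 3 lower and a median of 0.61. NECTIN3-206, of an adhesion molecule at cell contacts, had 517 and 526 counts in EtOH and 953 and 942 in HgCl2, 2.01-fold higher, and NECTIN3-211 was 1.52-fold higher. Transcripts of AFDN, which encodes the nectin-binding protein afadin, did not move together: the retained introns AFDN-221 and AFDN-220 had log2 fold changes of 0.92 and -0.81, and the coding AFDN-210 of 0.08. Catenin transcripts, chosen after their values were seen, also went both ways. CTNND1-209 had 3 and 4 counts in EtOH and 30 and 37 in HgCl2. CTNNB1-247 had 7 and 6 in EtOH and 38 and 37 in HgCl2, while CTNNB1-241 had 25 and 28 against 7 and 5. Summed over its transcripts, CTNNB1 had 49 and 54 counts in EtOH and 48 and 45 in HgCl2.

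**Figure D5:**
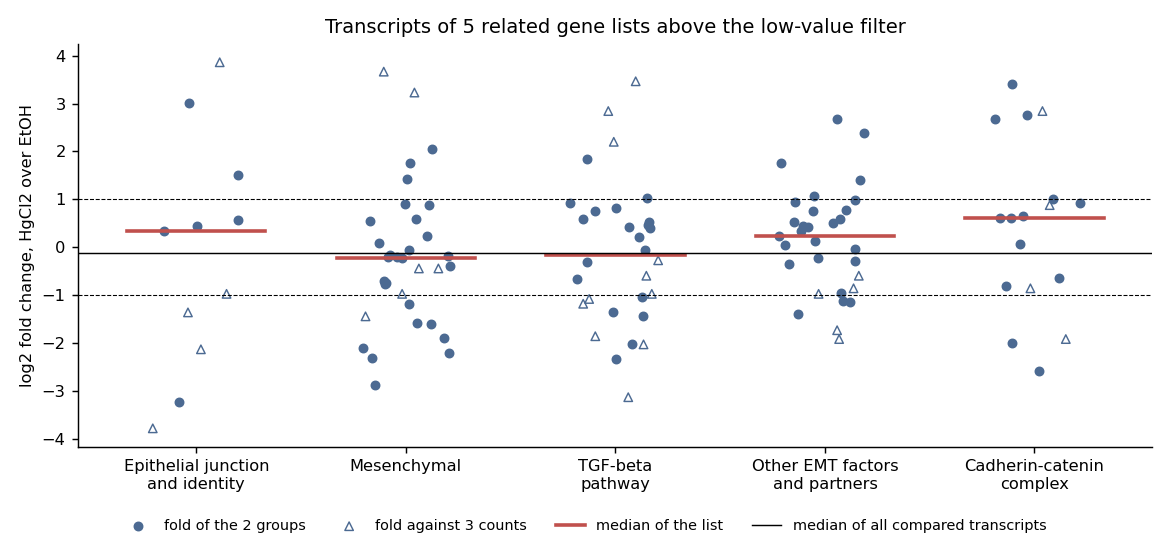
Log2 fold change, HgCl2 over EtOH, of each transcript above the filter in 5 lists of EMT genes, with filled points for folds of both groups, open triangles for folds taken against 3 counts, red bars for list medians, a black line at the median of all compared transcripts and dashed lines at 2-fold. Every list holds values on both sides of the line at -0.11, and the medians run from -0.22 to 0.61.

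Past 2-fold in either direction were 63.6% of the compared epithelial transcripts, 42.4% of the mesenchymal, 32.3% of the other factor and 47.1% of the cadherin-catenin transcripts and 15 of the 30 TGF-beta transcripts, beside 41.6% of all. Where each column had 10 or more counts, 0 of 4 epithelial transcripts, 6 of 16 mesenchymal, 4 of 15 TGF-beta, 3 of 21 other factor and 1 of 7 cadherin-catenin transcripts were past 2-fold, beside 24.9% of all. The medians of these lists were then 0.51, -0.20, 0.43, 0.42 and 0.60, beside 0.19 over all 8502 such transcripts. Of these 5 medians at 10 or more counts, the mesenchymal one alone was under that of all such transcripts, while above the filter the TGF-beta median of -0.16 was also under the -0.11 of all, and neither difference was tested.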

How the data were processed

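Poly-A RNA of H1299 cells was sequenced in 2 groups of 2 samples. Trimming by the authors used Trim Galore, alignment to GRCh38 used STAR 2.5.4b, and reads were counted on each transcript of Ensembl 98 with Rsubread, and the sources used here do not give the counting options, strand included. The deposited counts are not normalized. From the counts, the authors computed the deposited FPKM values in DESeq2 1.26.0. The submitters' processing notes also name edgeR 3.28.1 and limma. Columns were assigned to samples by group and replicate in their names.

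Gene names, transcript classes and bases of a transcript's own come from GENCODE 44 on GRCh38, which holds 223558 of the 227368 identifiers. A base is a transcript's own where no other listed transcript covers it on either strand, and counts made with the authors' annotation may rest on other bases. Since both columns of a group lay closer together than sampling noise, their mean served as 1 sample. The edgeR test planned for independent columns was therefore not used as a result. Mean counts were scaled with TMM (edgeR 4.0.16, R 4.3.3) over the transcripts that reached a mean FPKM over 1 in either group, and log2 ratios with Clopper-Pearson intervals were computed in Python 3.11.15 with scipy 1.17.1. For counts of transcripts past 2-fold, a group at or under 3 counts was set to 3, and with both groups there no fold is given, which left 16462 of 17547 transcripts. The scripts were tested on simulated data.

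Named are all EMT transcripts whose mean reached 10 counts in either group and, from each list, the 4 transcripts of highest mean count and up to 3 more with the largest fold among those with at least 30 counts in both groups. Other EMT transcripts, the markers, the antisense genes and some list transcripts chosen after their values were seen are given beside them. The genes, lists and rules were chosen with earlier results of these data known. Promoter sequences were not used here, and a few items under this rule are not reported.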

Additional observations from a re-analysis of the deposited data

How the results depend on the processing

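The log2 fold changes of VIM-203 (-0.94 to -0.56), VIM-207 (0.80 to 1.15), TWIST1-201 (0.39 to 0.74) and VIM-202 (0.06 to 0.41) kept their direction in the 12 alternatives that treat transcripts apart, and those of CDH2-201 (set to 3 counts in HgCl2) and ZEB2-225 in the 10 of these that gave a value. VIM-205 kept it in 11 of 12. Relative to TMM, all values moved by 0.18 on the deposited FPKM scale, by 0.14 without a filter and by -0.17 with TMM over transcripts that had 10 or more counts in each column. Most alternatives only shift all values in this way or leave out a column that is near-identical to its partner. A value larger in size than these shifts could hardly change sign there, so its kept direction is no independent check. Summing per gene gives all 5 VIM transcripts the value -0.16, which turns the sign of VIM-202, VIM-205, VIM-207 and VIM-210 and lies outside the range of VIM-203.

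The number of EMT transcripts past 2-fold, 1, was 2 with DESeq2 size factors (DESeq2 1.42.0) and on the FPKM scale, 4 without a filter, 0 by total count and 0 where each column had to hold 10 or more counts. It ranged from 0 to 2 when 1 column was left out, with 0 without HgCl2 replicate 1 and 2 without HgCl2 replicate 2, since VIM-210 and VIM-207 lie at the threshold. The replicate block in edgeR gave 1, as did the fit without it, but there it was ZEB2-242, and the log2 fold change of VIM-203 was -0.77 in both. Columns of a group differ by less than sampling noise, so their numbers pair nothing.

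The 54 transcripts past 2-fold in the other lists were 12 where each column had to hold 10 or more counts: 0 epithelial, 6 mesenchymal, 3 TGF-beta, 3 other factor and 0 cadherin-catenin transcripts, on the scaling of those transcripts. The variance ratio of the HgCl2 columns was 0.497 over transcripts whose columns add up to 100 counts or more. At this depth, transcripts under about 10 counts give folds with intervals wider than 2-fold, and so did named transcripts well above 10 counts. AFDN-210, at means of 45.5 counts in EtOH and 43.5 in HgCl2, had a log2 interval of -0.56 to 0.71. TGIF1-217, at 38 and 65, had one of 0.32 to 1.54. VIM-205, at a mean of 67.5 counts in both groups, had a log2 interval of -0.365 to 0.652.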
